A study of Mus musculus with 24 samples.

Results

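The genes described here are 40 antiviral interferon-stimulated genes of the 23234 genes in each of the authors' deposited tables, chosen by name from a list of genes known to respond to type I interferon. All 40 were present in both tables. Splenic B cells of C57BL/6 mice, taken fresh from the animal, had been sorted by the surface protein CD93 and their RNA sequenced. The 12 libraries used fall into 4 groups of 3: Tet2/Tet3-deficient CD93-negative cells (DKO), their controls (CTL), Tet2/Tet3-deficient CD93-positive cells (labelled KO), and their controls (CTL). Tet2 and Tet3 are dioxygenases that oxidise 5-methylcytosine in DNA. CD93 marks immature, transitional B cells and is lost on most mature B cells. The labels used here name neither the driver of the deletion nor age, treatment or whether libraries came from separate animals, so the spread behind each test may be technical. The other 12 samples of the series, CD93-negative cells sorted further by CD21 and CD23, were not analysed here.

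Type I interferons bind a receptor of Ifnar1 and Ifnar2 and activate the kinases Jak1 and Tyk2, which phosphorylate STAT proteins. With Irf9 these form the complex ISGF3, which binds interferon-stimulated response elements (ISRE) in the promoters of antiviral genes. The products detect viral nucleic acid, degrade or mask RNA, block entry and release of virus, or tag proteins with the ubiquitin-like protein Isg15. Interferon-gamma acts at gamma-activated sites (GAS) and shares part of the target genes, among them Irf1 and the Irg and Gbp families of GTPases.

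The promoters of 30 of the 40 genes could be read from RefSeq (build GRCm38.p6, 250 bases before to 50 bases after each start), and they are described first because they show which genes hold the letters that ISGF3 recognises. An ISRE-like match, GAAA, any 2 bases and GAAA again, on either strand, occurred in 13 of the 30 genes (43.3%), against 3.99% of all 27025 genes with a promoter in RefSeq. A GAS-like match, TTC, any 3 bases and GAA, which reads the same on both strands and may overlap an ISRE-like match, occurred in 8 of 30 genes (26.7%), against 9.55% of all genes. Parts of 7 promoters follow, 5′ to 3′ on the strand of the gene, with ISRE-like matches in capitals. A match is a string of letters and not a measured binding site. Isg15 is shown for its 3 overlapping matches (chr4:156200819-156201068, minus strand), which lie within the 78 bases before the start.
Isg15: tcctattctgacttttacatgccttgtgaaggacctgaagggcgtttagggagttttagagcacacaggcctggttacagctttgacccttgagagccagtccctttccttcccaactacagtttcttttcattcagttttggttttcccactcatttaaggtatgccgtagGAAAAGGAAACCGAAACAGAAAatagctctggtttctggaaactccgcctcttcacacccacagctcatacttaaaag
Oas1a and Oas1g are neighbouring oligoadenylate synthetase genes, and each holds 2 overlapping matches with the same letters just before the start (chr5:120907510-120907565, minus strand, and chr5:120887596-120887651, minus strand).
Oas1a: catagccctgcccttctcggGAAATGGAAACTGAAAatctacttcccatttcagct
Oas1g: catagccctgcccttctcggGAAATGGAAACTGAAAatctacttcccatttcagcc
In Ifit1 (chr19:34640765-34640833, plus strand) and Ifit3 (chr19:34583353-34583436, plus strand) the 2 matches lie on the opposite strand, so the capitals show the complement, and they stand apart from each other.
Ifit1: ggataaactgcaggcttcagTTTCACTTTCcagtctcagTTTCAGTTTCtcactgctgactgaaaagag
Ifit3: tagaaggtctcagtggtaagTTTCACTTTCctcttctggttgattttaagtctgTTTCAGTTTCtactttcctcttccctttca
Bst2 (chr8:71537567-71537622, minus strand) has 2 overlapping matches and, partly overlapping them, a GAS-like match.
Bst2: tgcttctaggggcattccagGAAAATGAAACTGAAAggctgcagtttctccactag
Rsad2 (chr12:26456453-26456702, minus strand) is shown because its change differed in direction between the 2 populations, as described below. Its promoter holds 1 match on the opposite strand.
Rsad2: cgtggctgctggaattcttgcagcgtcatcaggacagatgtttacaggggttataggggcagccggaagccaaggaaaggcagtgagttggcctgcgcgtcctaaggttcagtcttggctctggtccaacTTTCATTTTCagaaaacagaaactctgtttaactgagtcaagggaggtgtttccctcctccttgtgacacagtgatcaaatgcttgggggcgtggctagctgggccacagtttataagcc
No sequence is printed for the remaining genes, of which Dhx58, Zbp1, Oas2, Mx1, Mx2, Usp18, Parp9, Parp14, Rtp4 and Ifi27l2a have no entry in the RefSeq promoter table.

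Values are FPKM, fragments per kilobase of transcript, scaled to the mapped fragments of each library, as the authors deposited them, with no read totals, so the precision that depth gives is unknown. The 2 tables were scaled separately, so levels are not compared between them. Changes are differences of mean log2(FPKM + 1), deficient minus control, given with their standard error (SE), and a gene is called at a Benjamini-Hochberg adjusted p of 0.05 over all genes tested with limma. Low genes change less on this scale than in FPKM. FPKM summed to 424032 to 463987 in DKO and 342368 to 394709 in CTL CD93-negative libraries. In CD93-positive cells the sum was 309359 in KO replicate 3, against 523898 to 597968 in the other 5 libraries, and 91.8% of all tested genes were lower in KO replicate 3 than in both other KO libraries. All KO libraries and CTL replicate 3 had Xist above Ddx3y, as in female mice, while CTL replicates 1 and 2 had Ddx3y above Xist, as in males, and so did all CD93-negative libraries. Genotype and sex are therefore partly mixed in CD93-positive cells. The targeted gene Tet2 measured 9.94, 8.15 and 9.40 FPKM in DKO libraries, against 6.36, 8.11 and 8.79 FPKM in CTL libraries of CD93-negative cells. Tet3 measured 15.7, 15.6 and 14.9 FPKM in DKO libraries, against 14.8, 20.1 and 19.0 FPKM in CTL libraries. Both overlapped there. Among CD93-positive libraries Tet2 measured 3.55, 2.29 and 1.80 FPKM in KO libraries, against 3.18, 3.47 and 3.10 FPKM in CTL libraries, while Tet3 measured 9.92, 7.67 and 3.84 FPKM in KO libraries, against 12.1, 13.0 and 14.1 FPKM in CTL libraries and did not overlap. Values over a whole gene do not show whether an exon was deleted. Cd93, the sort marker, was at 3.32 to 4.65 FPKM in all CD93-negative libraries and 28.0 to 59.9 FPKM in all CD93-positive ones. The markers of mature B cell subsets Cr2 (CD21) and Fcer2a (CD23) were lower in deficient cells of both populations. Cr2 measured 42.2, 43.4 and 43.4 FPKM in DKO libraries, against 90.4, 112 and 110 FPKM in CTL libraries of CD93-negative cells (log2 change -1.25 ± 0.13, limma adjusted p = 2.97e-05), and 2.31, 2.54 and 0.851 FPKM in KO libraries, against 5.87, 6.01 and 7.09 FPKM in CTL libraries of CD93-positive cells (log2 change -1.39 ± 0.30, limma adjusted p = 0.000236). Fcer2a measured 166, 168 and 167 FPKM in DKO libraries, against 300, 367 and 357 FPKM in CTL libraries of CD93-negative cells (log2 change -1.02 ± 0.13, limma adjusted p = 0.000176), and 17.0, 16.9 and 8.53 FPKM in KO libraries, against 40.8, 34.9 and 37.5 FPKM in CTL libraries of CD93-positive cells (log2 change -1.41 ± 0.38, limma adjusted p = 0.00808). These markers moved with genotype beside the antiviral genes, and their part in the results below was not tested.

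In CD93-negative B cells the antiviral genes were higher in DKO than in CTL libraries. Of 38 genes tested, 32 rose and 0 fell with limma, where 18.7% of all 10960 tested genes rose and 2.79% fell (21.5% in all). At an unadjusted p of 0.05 the antiviral counts were 34 and 0, and the share over all genes was not counted. The median change was 0.91, against 0.11 over all tested genes, or 0.79 relative to that median. DKO libraries lay entirely above CTL libraries for 35 of the 38 genes, where 31.5% of all tested genes did, and entirely below for 0, where 7.43% did. Rescaling the libraries to a common upper quartile, which lowered the median of all genes to -0.08, turned the calls over all genes to 17.1% higher and 23.8% lower (40.9% in all), and among the antiviral genes gave 32 higher and 1 lower, Samd9l. Ifih1, Oas1g, Ifit1 and Rsad2 met the filter, 1 FPKM in at least 3 libraries, through the DKO libraries alone, and without these 4 the count was 28 of 34. Parp12 and Ifi44 were below the filter. Parp12, an ADP-ribosyltransferase, was at 0.781, 0.636 and 0.571 FPKM in DKO libraries, against 0.131, 0.147 and 0.114 FPKM in CTL libraries. Ifi44 was at 0.875, 1.17 and 1.09 FPKM in DKO libraries, against 0.366, 0.225 and 0.447 FPKM in CTL libraries. Both had every DKO library above every CTL library, and in the fit with no filter both were called higher (log2 change 0.55, adjusted p = 0.00673 for Parp12, and 0.60, adjusted p = 0.0189 for Ifi44). That fit called 30 of all 40 genes higher, 28 of them among the 32. In sorted bulk cells, more RNA per cell and more cells of an expressing type cannot be told apart.

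**Figure D1:**
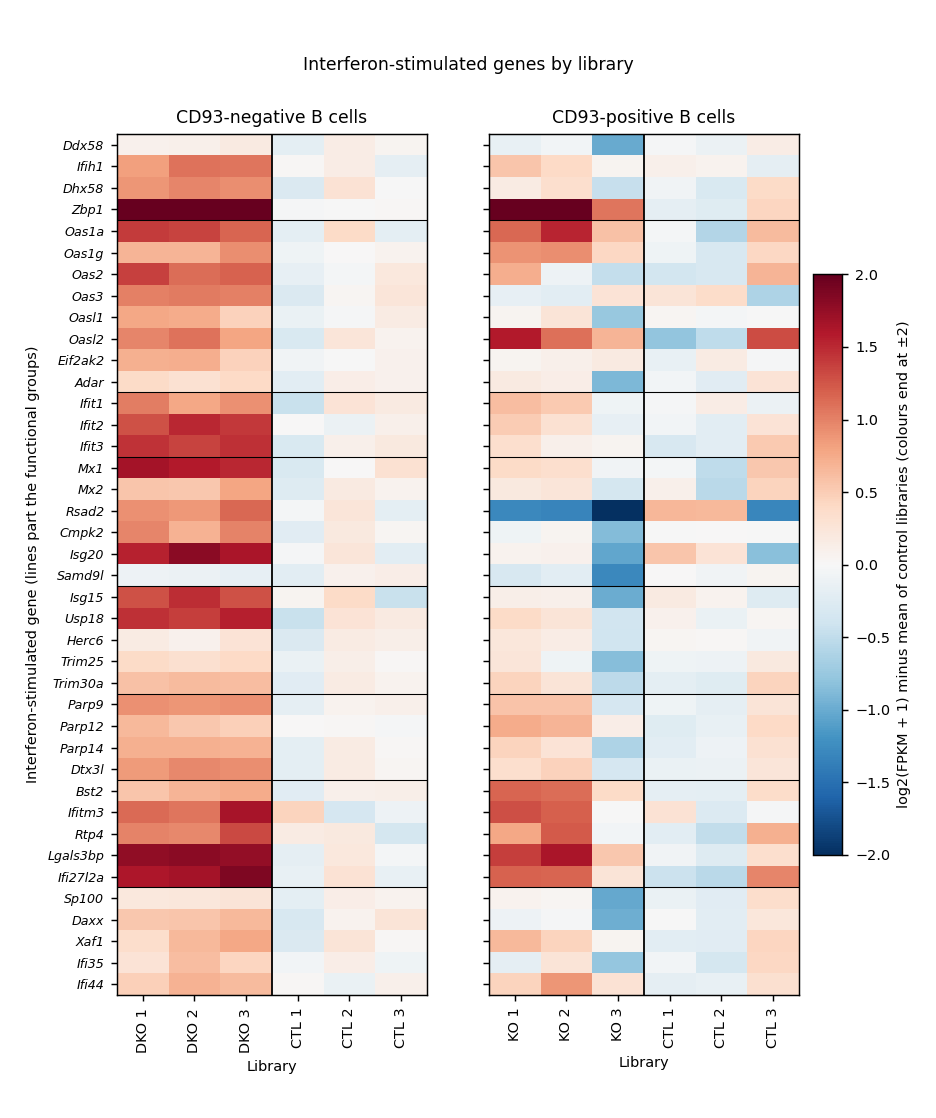
Level of each of the 40 genes in each library as log2(FPKM + 1) minus the mean of the 3 control libraries, with genes in rows by functional group and libraries in columns, deficient ones on the left of each panel. In CD93-negative cells nearly all rows are red in the 3 DKO libraries, while in CD93-positive cells KO 3 is paler or bluer than KO 1 and KO 2.

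Among sensors of viral nucleic acid, 3 of 4 rose, counting Ifih1, which met the filter through the DKO libraries alone. Zbp1, which binds Z-form nucleic acid and can start necroptosis, was at 82.8, 82.1 and 82.3 FPKM in DKO libraries, against 19.0, 19.1 and 19.6 FPKM in CTL libraries (log2 change 2.04 ± 0.12, limma adjusted p = 2.28e-07). The DKO libraries differed from one another by under 1 FPKM, and the gap between the groups was the widest on the log2 scale among the 38 genes. Ifih1, the sensor of long double-stranded RNA also called MDA5, was at 1.72, 2.25 and 2.21 FPKM in DKO libraries, against 0.559, 0.699 and 0.357 FPKM in CTL libraries (log2 change 0.99 ± 0.16, limma adjusted p = 0.000981). Dhx58, a relative that tunes the other sensors, also rose (log2 change 0.93 ± 0.15, limma adjusted p = 0.00113). Ddx58, the RIG-I sensor of RNA with triphosphate ends, was at 24.7, 25.2 and 26.5 FPKM in DKO libraries, against 20.3, 25.9 and 24.3 FPKM in CTL libraries, and the groups overlapped (log2 change 0.12 ± 0.13, limma adjusted p = 0.584).

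Of 8 enzymes that act on double-stranded RNA or are switched on by it, 7 rose. That count includes Oas1g, which met the filter through the DKO libraries alone. Oligoadenylate synthetases make the second messenger that activates the nuclease RNase L. Oas1a was at 5.38, 5.199 and 4.39 FPKM in DKO libraries, against 1.12, 2.16 and 1.11 FPKM in CTL libraries (log2 change 1.31 ± 0.18, limma adjusted p = 0.000279). Oas2 was at 10.5, 8.68 and 9.16 FPKM in DKO libraries, against 2.98, 3.37 and 4.15 FPKM in CTL libraries (log2 change 1.22 ± 0.15, limma adjusted p = 9.53e-05). In both genes every DKO library exceeded every CTL library, but 57.6% of the 50-base stretches of Oas1a transcripts also occur in another gene, mainly Oas1g, so the authors' counting could split reads between Oas1a and Oas1g and both values are uncertain. Oas1g was at 1.45, 1.45 and 1.91 FPKM in DKO libraries, against 0.443, 0.540 and 0.611 FPKM in CTL libraries, again without overlap (log2 change 0.76 ± 0.16, limma adjusted p = 0.00423). Changes of Oas3 (1.02 ± 0.16, adjusted p = 0.000611), Oasl1 (0.66 ± 0.14, adjusted p = 0.00642) and Oasl2 (0.95 ± 0.17, adjusted p = 0.00164) were called as well. The same held for Eif2ak2, the kinase PKR that halts translation (0.63 ± 0.13, adjusted p = 0.00464). Adar, which converts adenosine to inosine in double-stranded RNA, was at 40.1, 38.2 and 40.6 FPKM in DKO libraries, against 26.4, 33.6 and 32.5 FPKM in CTL libraries. Its groups did not overlap, but the change was small (log2 change 0.36 ± 0.13, limma adjusted p = 0.0737). Adar was called higher without CTL replicate 1 (adjusted p = 0.0237), without CTL replicate 2 (0.039) and after rescaling (0.0368; adjusted p from 0.0237 to 0.262 over 16 alternatives).

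All 3 genes of the IFIT family, whose products bind foreign RNA ends, rose, but Ifit1 met the filter through the DKO libraries alone. Ifit3 was at 10.9, 10.2 and 11.1 FPKM in DKO libraries, against 2.58, 3.73 and 4.03 FPKM in CTL libraries (log2 change 1.42 ± 0.15, limma adjusted p = 4.15e-05). Ifit2 was at 8.88, 10.6 and 9.83 FPKM in DKO libraries, against 3.12, 2.78 and 3.36 FPKM in CTL libraries (log2 change 1.40 ± 0.14, limma adjusted p = 1.86e-05). Ifit1, which binds caps that lack ribose methylation, was the lowest of the 3 in every library, at 2.86, 2.23 and 2.58 FPKM in DKO libraries, against 0.393, 1.28 and 1.15 FPKM in CTL libraries (log2 change 0.90 ± 0.20, limma adjusted p = 0.00596). For each gene the 3 DKO libraries stood above all CTL libraries. Of the 50-base stretches of Ifit3, 51.2% also occur in another gene, mainly Ifit3b, so that value is uncertain.

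Among 6 effectors that act on nucleotides, RNA or viral particles, 5 rose, counting Rsad2, which met the filter through the DKO libraries alone. Isg20, an exonuclease of single-stranded RNA, was at 19.1, 23.0 and 20.3 FPKM in DKO libraries, against 5.75, 7.11 and 4.95 FPKM in CTL libraries (log2 change 1.66 ± 0.15, limma adjusted p = 9.19e-06). Mx1, a dynamin-like GTPase that in C57BL/6 mice gives no functional protein, was at 14.99, 14.2 and 13.4 FPKM in DKO libraries, against 3.10, 4.09 and 5.24 FPKM in CTL libraries (log2 change 1.59 ± 0.16, limma adjusted p = 2.41e-05). Its relative Mx2 changed by less (log2 change 0.62 ± 0.16, limma adjusted p = 0.0147) and was not called without DKO replicate 3 (adjusted p = 0.0738; adjusted p from 0.00298 to 0.0899 over 15 alternatives). Rsad2, or viperin, which makes a chain-terminating nucleotide, was at 2.52, 2.42 and 3.14 FPKM in DKO libraries, against 0.830, 1.20 and 0.627 FPKM in CTL libraries (log2 change 0.98 ± 0.17, limma adjusted p = 0.00129). Its neighbour Cmpk2, a mitochondrial nucleotide kinase, rose by about as much (log2 change 0.89 ± 0.15, limma adjusted p = 0.00122). Samd9l, a factor that restricts poxviruses, was at 76.2, 75.2 and 72.5 FPKM in DKO libraries, against 70.7, 86.5 and 89.2 FPKM in CTL libraries, with overlapping groups (log2 change -0.13 ± 0.13, limma adjusted p = 0.547), and it was the gene called lower after rescaling (log2 change -0.35, adjusted p = 0.00268; adjusted p from 0.00268 to 0.863 over 16 alternatives) and without CTL replicate 1 (log2 change -0.23, adjusted p = 0.0281).

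Of 5 genes of the Isg15 system and TRIM ligases, 3 rose. Usp18, which removes Isg15 from proteins and also blocks the interferon receptor, was at 10.8, 10.2 and 11.6 FPKM in DKO libraries, against 2.15, 4.17 and 3.85 FPKM in CTL libraries (log2 change 1.46 ± 0.18, limma adjusted p = 0.000123). Isg15 was at 19.9, 23.0 and 19.8 FPKM in DKO libraries, against 7.97, 10.3 and 5.34 FPKM in CTL libraries (log2 change 1.34 ± 0.19, limma adjusted p = 0.000311). CTL replicate 1 was lowest for Usp18 and CTL replicate 3 for Isg15, and in both genes the DKO libraries were close to one another and above all controls. Herc6, the main ligase for Isg15 in mice, was at 5.48, 5.16 and 5.99 FPKM in DKO libraries, against 3.75, 5.54 and 5.31 FPKM in CTL libraries, with overlapping groups (log2 change 0.17 ± 0.15, limma adjusted p = 0.489). Trim30a, a ubiquitin ligase, rose (log2 change 0.61 ± 0.14, limma adjusted p = 0.00674), while Trim25, the ligase that acts on RIG-I, was just short of the threshold (log2 change 0.37 ± 0.12, limma adjusted p = 0.0521) and past it without CTL replicate 1 (adjusted p = 0.0145) or CTL replicate 2 (0.0299; adjusted p from 0.0145 to 0.230 over 16 alternatives).

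Every tested gene of the PARP and DTX3L group rose. Dtx3l, a ubiquitin ligase, was at 27.1, 29.1 and 28.5 FPKM in DKO libraries, against 12.6, 16.4 and 14.9 FPKM in CTL libraries (log2 change 0.91 ± 0.13, limma adjusted p = 0.000442). Its partner Parp9 was at 28.8, 28.2 and 28.5 FPKM in DKO libraries, against 12.9, 15.6 and 16.0 FPKM in CTL libraries (log2 change 0.90 ± 0.13, limma adjusted p = 0.000354). The 2 genes lie head to head in the genome, and their levels were alike in each library. Parp14, an ADP-ribosyltransferase, was at 28.8, 28.9 and 28.5 FPKM in DKO libraries, against 14.99, 19.6 and 17.5 FPKM in CTL libraries (log2 change 0.70 ± 0.13, limma adjusted p = 0.00242), again with no overlap.

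All 5 genes for membrane, secreted and mitochondrial proteins rose. Lgals3bp, a secreted glycoprotein, was at 25.7, 26.2 and 25.2 FPKM in DKO libraries, against 5.85, 8.02 and 6.59 FPKM in CTL libraries (log2 change 1.78 ± 0.14, limma adjusted p = 2.75e-06). Ifi27l2a, a small hydrophobic protein, was the most abundant of the 40 in every DKO library, at 278, 286 and 332 FPKM in DKO libraries, against 81.4, 110 and 81.5 FPKM in CTL libraries (log2 change 1.71 ± 0.15, limma adjusted p = 8.91e-06). Bst2, or tetherin, which holds budding virus at the cell surface, was at 92.4, 100 and 106 FPKM in DKO libraries, against 53.5, 67.3 and 67.7 FPKM in CTL libraries (log2 change 0.66 ± 0.14, limma adjusted p = 0.00447). It was already high in controls, and the gap between the closest libraries of the 2 groups was wider than the range within either. Ifitm3, which blocks fusion of viral and endosomal membranes (log2 change 1.28 ± 0.21, limma adjusted p = 0.00107), and Rtp4, a chaperone of membrane receptors (log2 change 1.09 ± 0.17, limma adjusted p = 0.00081), rose too.

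Of 4 tested genes for nuclear body, death and other proteins, 3 rose, and the changes were the smallest of the 8 groups by their median, 0.51. Xaf1, which counters the caspase inhibitor XIAP, was at 8.19, 10.3 and 11.3 FPKM in DKO libraries, against 4.93, 7.61 and 6.38 FPKM in CTL libraries (log2 change 0.59 ± 0.17, limma adjusted p = 0.0257). Daxx, a histone chaperone of PML bodies, was at 33.4, 33.8 and 35.9 FPKM in DKO libraries, against 17.9, 23.8 and 27.2 FPKM in CTL libraries (log2 change 0.58 ± 0.15, limma adjusted p = 0.0173). Neither gene showed overlap, but the CTL libraries spread more widely than the DKO ones for Daxx. Ifi35, an interferon-induced leucine zipper protein, also rose (log2 change 0.44 ± 0.14, limma adjusted p = 0.0361). These 3 calls depended on single libraries: without DKO replicate 3 none was made (adjusted p = 0.0936 for Xaf1, 0.0561 for Daxx and 0.124 for Ifi35), Xaf1 also missed the threshold without CTL replicate 1 (0.0605), and Ifi35 without CTL replicate 3 (0.128), without DKO replicate 2 (0.236) and after rescaling (0.133). Adjusted p over 16 alternatives was at most 0.235 for Xaf1, 0.0665 for Daxx and 0.236 for Ifi35. Sp100, another component of PML bodies, was at 138, 140 and 143 FPKM in DKO libraries, against 104, 131 and 125 FPKM in CTL libraries, a difference of 0.23 ± 0.13 that was not called (adjusted p = 0.248). Stretches of 50 bases shared with other genes made up 10.2% of Sp100, 10.02% of Ifitm3, 13.7% of Rtp4 and 23.8% of Herc6, and these values are uncertain to that extent.

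**Figure D2:**
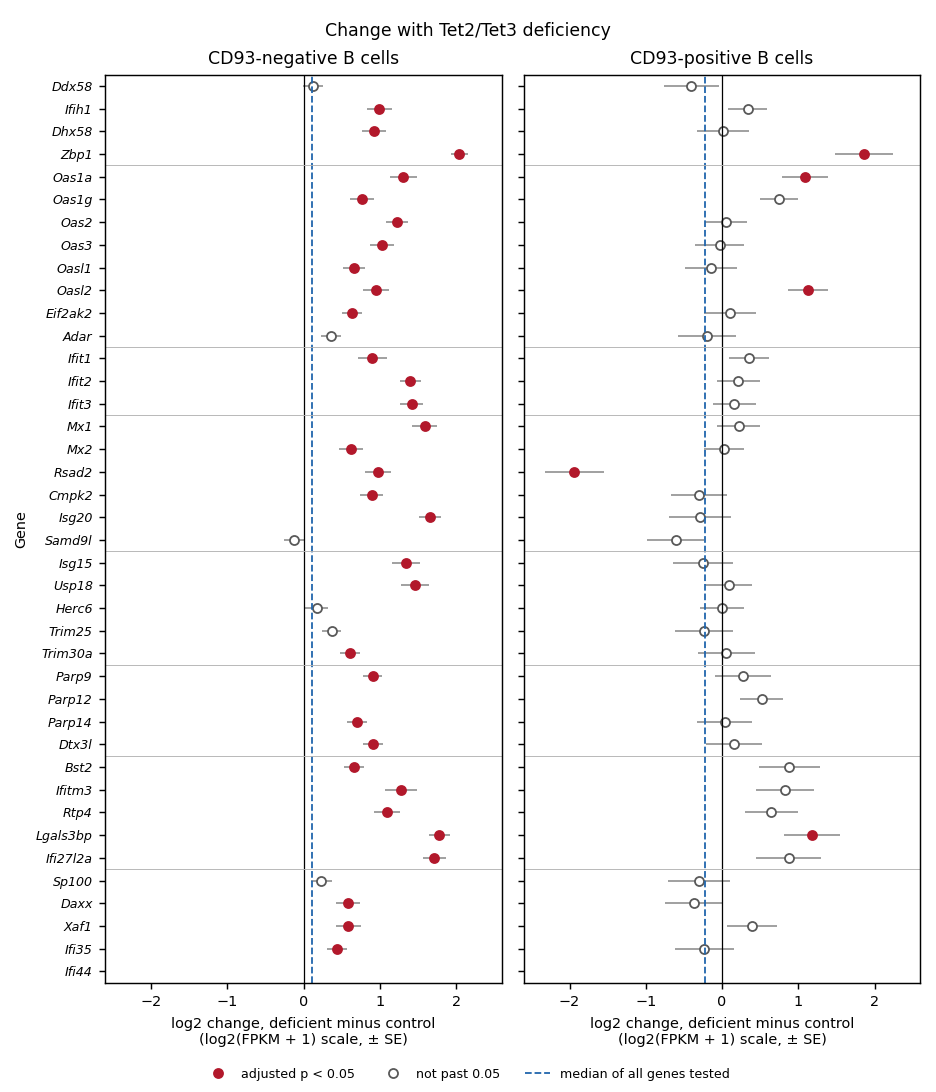
Log2 change of each gene, deficient minus control, on the log2(FPKM + 1) scale with its standard error, for CD93-negative (left) and CD93-positive cells (right). Filled points passed the adjusted p of 0.05 (32 of 38 on the left, 5 of 39 on the right), and the dashed line is the median of all genes tested, 0.11 and -0.22. Standard errors are wider on the right.

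In CD93-positive B cells few antiviral genes differed between KO and CTL libraries. Of 39 tested genes 4 rose, Zbp1, Oas1a, Oasl2 and Lgals3bp, and 1 fell, Rsad2. Over all 11250 tested genes 1.67% rose and 1.54% fell (3.21% in all). At an unadjusted p of 0.05 the antiviral counts were 8 and 1, and the share over all genes was not counted. The median change was 0.085, against -0.22 over all tested genes, or 0.31 relative to that median. KO libraries lay entirely above CTL libraries for 4 genes, Zbp1, Oas1g, Bst2 and Lgals3bp, where 2.94% of all tested genes did, and entirely below for 1, Samd9l, where 19.0% did. Ifih1, Oas1g, Oasl2 and Mx2 met the filter through the KO libraries alone, and without them 3 of 35 rose and 1 fell. Ifi44 was below the filter. After rescaling to a common upper quartile 9 genes rose (Zbp1, Oas1a, Oas1g, Parp9, Parp12, Dtx3l, Bst2, Ifitm3 and Lgals3bp) and 1 fell, Samd9l, where 11.4% of all tested genes rose and 9.34% fell (20.7% in all). In KO replicate 3, 37 of the 39 genes were below both other KO libraries, as were 91.8% of all tested genes. Without it 5 rose (Zbp1, Oas1a, Bst2, Ifitm3 and Lgals3bp) and 0 fell (15 and 1 at an unadjusted p of 0.05). Of all 11107 genes tested in that fit, 487 rose and 136 fell. With sex as a covariate, or in female libraries only, the change rests on CTL replicate 3 alone against the KO libraries. Sex and the loss of CTL replicates 1 and 2 therefore cannot be told apart in those fits. With sex as a covariate the median change was -0.087, against -0.32 over all tested genes. With rescaling and sex together it was 0.24, against -0.020. Without CTL replicate 1, or without CTL replicate 2, Zbp1 alone rose and 0 fell (5 and 1, and 4 and 1, unadjusted). Over all genes 97 of 11093 rose and 42 fell without CTL replicate 1. Without CTL replicate 2 these were 109 of 11073 and 48. Without KO replicate 2 there were 2 antiviral genes higher and 1 lower, against 80 higher and 122 lower of all 11062.

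Zbp1 was at 61.3, 67.5 and 27.9 FPKM in KO libraries, against 11.1, 10.6 and 17.4 FPKM in CTL libraries (log2 change 1.86 ± 0.38, limma adjusted p = 8.86e-05). The groups did not overlap, and KO replicate 3 and CTL replicate 3 were the closest libraries of the 2 groups. It was called under 18 of 21 alternatives (adjusted p from 5.66e-05 to 0.999 over 21 alternatives). The 3 without a call were no filter, sex as a covariate, and female libraries only. Lgals3bp was at 27.9, 33.4 and 15.04 FPKM in KO libraries, against 9.51, 8.25 and 13.0 FPKM in CTL libraries, also without overlap (log2 change 1.18 ± 0.37, limma adjusted p = 0.0404). It was called under 10 of 21 alternatives (adjusted p from 0.00186 to 0.999 over 21 alternatives), and not without any 1 of CTL replicates 1, 2 and 3 and KO replicates 1 and 2 (adjusted p from 0.138 to 0.649). Bst2 was at 95.3, 92.1 and 55.1 FPKM in KO libraries, against 37.1, 36.8 and 54.8 FPKM in CTL libraries. KO replicate 3 exceeded CTL replicate 3 by under 1 FPKM, and the change was not called (log2 change 0.88 ± 0.40, limma adjusted p = 0.331), whereas it was after rescaling (log2 change 1.13, adjusted p = 0.00309; adjusted p from 0.00309 to 0.9995 over 21 alternatives).

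Oas1a was at 6.01, 8.04 and 3.72 FPKM in KO libraries, against 2.06, 1.11 and 3.88 FPKM in CTL libraries (log2 change 1.08 ± 0.30, limma adjusted p = 0.0123), and it was called under 10 of 20 alternatives (adjusted p from 0.00869 to 0.999 over 20 alternatives), but not without CTL replicate 1 (0.352), CTL replicate 2 (0.766) or KO replicate 2 (0.263). Here KO replicate 3 and CTL replicate 3 overlapped. Its neighbour Oas1g was at 2.45, 2.49 and 1.45 FPKM in KO libraries, against 0.735, 0.469 and 1.44 FPKM in CTL libraries. KO replicate 3 exceeded CTL replicate 3 by under 1 FPKM, and Oas1g was not called (log2 change 0.75 ± 0.25, limma adjusted p = 0.0762), but was after rescaling (log2 change 0.89, adjusted p = 0.0206; adjusted p from 0.0192 to 0.999 over 20 alternatives). Oasl2, an oligoadenylate synthetase-like protein, was at 4.63, 3.04 and 1.996 FPKM in KO libraries, against 0.0852, 0.312 and 3.63 FPKM in CTL libraries (log2 change 1.12 ± 0.26, limma adjusted p = 0.00103). It was called under 6 of 20 alternatives (adjusted p from 4.48e-07 to 0.999 over 20 alternatives), and not without CTL replicate 1 (0.866), CTL replicate 2 (0.340) or KO replicate 3 (0.171). CTL replicate 3, the female control, lay within the KO range, and both male controls lay below it, and the change was -0.18 with sex as a covariate. For Ifi27l2a the pattern of controls was alike, with 370, 364 and 195 FPKM in KO libraries, against 119, 111 and 320 FPKM in CTL libraries (log2 change 0.87 ± 0.43, limma adjusted p = 0.393). CTL replicate 3 exceeded both other controls for 27 of the 39 genes (69.2%), where it did for 65.2% of all tested genes.

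**Figure D3:**
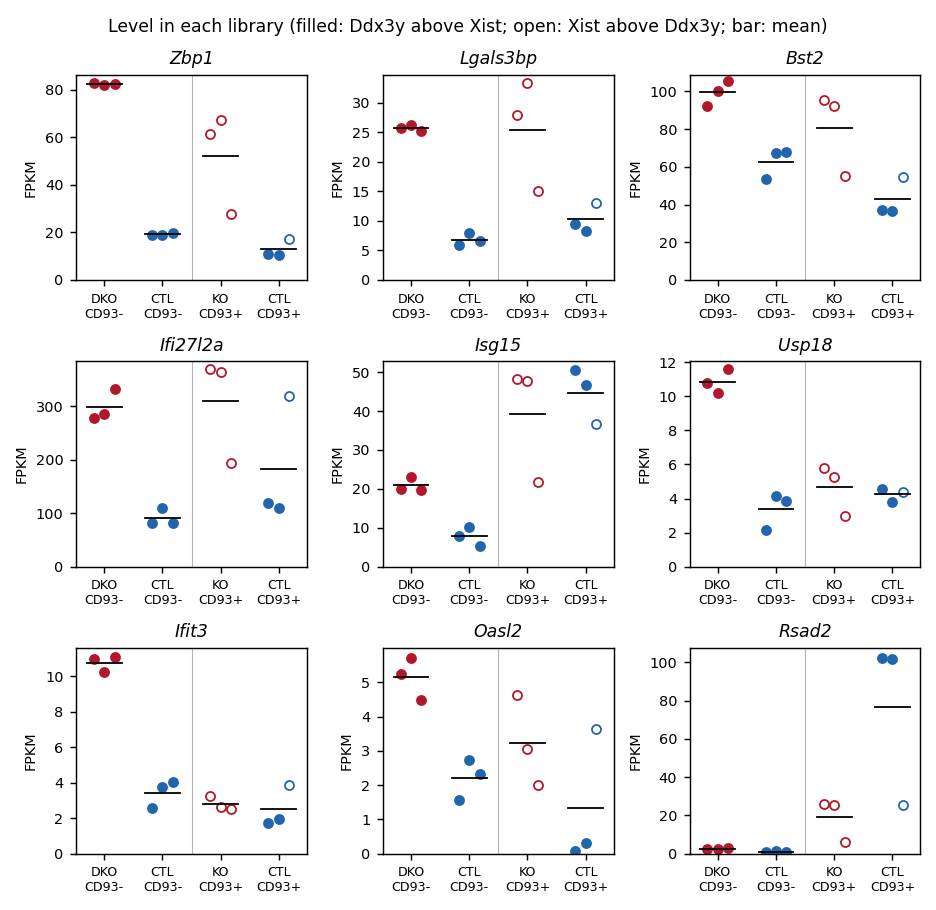
FPKM of 9 of the genes in each library, with deficient libraries in red and controls in blue, the bar at the mean of 3 libraries, and open points for libraries with Xist above Ddx3y. CD93-negative and CD93-positive values come from tables scaled separately. In CD93-positive cells the open control point stands apart from the filled ones for Ifi27l2a, Oasl2 and Rsad2.

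The groups overlapped in CD93-positive cells for most of the genes given above library by library. Ifih1 was at 2.22, 1.89 and 1.30 FPKM in KO libraries, against 1.37, 1.31 and 0.945 FPKM in CTL libraries. Ddx58 was at 15.7, 16.6 and 8.17 FPKM in KO libraries, against 17.0, 16.0 and 19.3 FPKM in CTL libraries. Zbp1 was thus the sensor in which the groups stood apart. Oas2 was at 4.36, 2.01 and 1.33 FPKM in KO libraries, against 1.501, 1.59 and 4.20 FPKM in CTL libraries. Only the first of the KO libraries was high for Oas2, and CTL replicate 3 was nearly as high. Adar was at 27.2, 26.1 and 12.3 FPKM in KO libraries, against 22.8, 20.3 and 29.0 FPKM in CTL libraries. The IFIT genes were low in all 6 libraries. Ifit3 was at 3.25, 2.63 and 2.501 FPKM in KO libraries, against 1.71, 1.93 and 3.86 FPKM in CTL libraries. Ifit2 was at 3.86, 3.26 and 2.05 FPKM in KO libraries, against 2.31, 1.97 and 3.13 FPKM in CTL libraries. Ifit1 was at 2.91, 2.64 and 1.38 FPKM in KO libraries, against 1.49, 1.81 and 1.33 FPKM in CTL libraries. Their changes were between 0.16 and 0.35, with no call. Mx1 was at 3.43, 3.28 and 2.23 FPKM in KO libraries, against 2.29, 1.40 and 3.95 FPKM in CTL libraries, and the highest library was a control.

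Isg15 was at 48.2, 47.8 and 21.8 FPKM in KO libraries, against 50.5, 46.8 and 36.8 FPKM in CTL libraries (log2 change -0.26 ± 0.39, limma adjusted p = 0.836), so KO replicates 1 and 2 lay within the range of controls and KO replicate 3 below it. Usp18 was at 5.81, 5.28 and 3.002 FPKM in KO libraries, against 4.56, 3.80 and 4.37 FPKM in CTL libraries (log2 change 0.085 ± 0.31, limma adjusted p = 0.946). Isg20 was at 78.8, 79.6 and 35.9 FPKM in KO libraries, against 110, 90.8 and 41.6 FPKM in CTL libraries. Herc6 was at 3.61, 3.36 and 1.99 FPKM in KO libraries, against 3.04, 3.003 and 2.77 FPKM in CTL libraries. In none of these 4 genes were the KO libraries set apart from the controls. Dtx3l was at 19.1, 20.96 and 11.6 FPKM in KO libraries, against 13.5, 13.7 and 17.8 FPKM in CTL libraries. Parp9 was at 21.8, 21.9 and 11.1 FPKM in KO libraries, against 13.5, 12.6 and 17.3 FPKM in CTL libraries. Parp14 was at 18.7, 16.6 and 8.42 FPKM in KO libraries, against 11.6, 12.5 and 16.8 FPKM in CTL libraries. For these 3, KO replicates 1 and 2 were above the male controls and KO replicate 3 was below all controls. Xaf1 was at 8.84, 7.55 and 5.52 FPKM in KO libraries, against 4.43, 4.38 and 7.40 FPKM in CTL libraries. Daxx was at 27.8, 29.7 and 14.7 FPKM in KO libraries, against 29.8, 25.8 and 35.1 FPKM in CTL libraries, which placed KO replicates 1 and 2 within the controls. Sp100 was at 74.0, 72.7 and 34.4 FPKM in KO libraries, against 64.6, 60.4 and 90.2 FPKM in CTL libraries, with the same placing. Samd9l, at 17.5, 19.0 and 8.45 FPKM in KO libraries, against 22.3, 20.99 and 23.2 FPKM in CTL libraries, was lower in every KO library, without a call (log2 change -0.61 ± 0.37, limma adjusted p = 0.532).

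Of the genes not yet given in CD93-positive cells, Rsad2 is described below and no other was called with the authors' scaling. The 3 largest changes among those others were in Ifitm3 at 45.5 ± 19.4 FPKM in KO libraries and 23.7 ± 4.85 FPKM in CTL libraries (SD, n = 3 each), Rtp4 at 11.8 ± 5.29 FPKM in KO libraries and 7.18 ± 3.77 FPKM in CTL libraries, and Parp12 at 3.42 ± 0.963 FPKM in KO libraries and 2.096 ± 0.797 FPKM in CTL libraries. Changes of Dhx58, Oas3, Oasl1, Eif2ak2, Mx2, Cmpk2, Trim25, Trim30a and Ifi35 ran from -0.30 (Cmpk2) to 0.11 (Eif2ak2). Ifi44 was at 0.667, 1.25 and 0.493 FPKM in KO libraries, against 0.0739, 0.105 and 0.530 FPKM in CTL libraries.

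Rsad2 was the one gene called higher in DKO cells of the CD93-negative table and lower in KO cells of the CD93-positive table. In CD93-positive cells it was at 25.9, 25.4 and 6.01 FPKM in KO libraries, against 102, 102 and 25.5 FPKM in CTL libraries (log2 change -1.94 ± 0.39, limma adjusted p = 4.93e-05). It was called under 8 of 21 alternatives (adjusted p from 3.90e-05 to 0.999 over 21 alternatives), and not without CTL replicate 1 (0.107), CTL replicate 2 (0.0717) or KO replicate 3 (0.168). KO replicates 1 and 2 were within 1 FPKM of CTL replicate 3, the female control, KO replicate 3 was below them, and the male controls stood far above. After rescaling the change was not called (log2 change -1.72, adjusted p = 0.0931). Markers of red cells were likewise highest in CTL replicates 1 and 2 and lowest in KO replicate 3. The sum of 6 such markers, the 4 globin genes Hba-a1, Hba-a2, Hbb-b1 and Hbb-b2 with Slc4a1 and Alas2, was 13882, 15612 and 3282 FPKM in KO libraries, against 64218, 54952 and 15033 FPKM in CTL libraries, and 6 of 6 were called lower (0 of 6 after rescaling). Per 1000 FPKM of that sum, Rsad2 stood at 1.87, 1.62 and 1.83 FPKM in KO libraries, against 1.59, 1.85 and 1.695 FPKM in CTL libraries. The sum varied 19.6-fold over the 6 libraries and this ratio 1.17-fold, the least of the 39 genes, followed by Isg20 with 6.61-fold. This ratio was examined after the values had been seen, and the part of red cell RNA in the Rsad2 result was not tested further. In CD93-negative cells the red cell sum was 169, 198 and 194 FPKM in DKO libraries, against 44.4, 59.8 and 41.6 FPKM in CTL libraries, and Rsad2 stood at 14.9, 12.2 and 16.2 FPKM per 1000 FPKM of it in DKO libraries, against 18.7, 20.1 and 15.1 FPKM in CTL libraries.

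**Figure D4:**
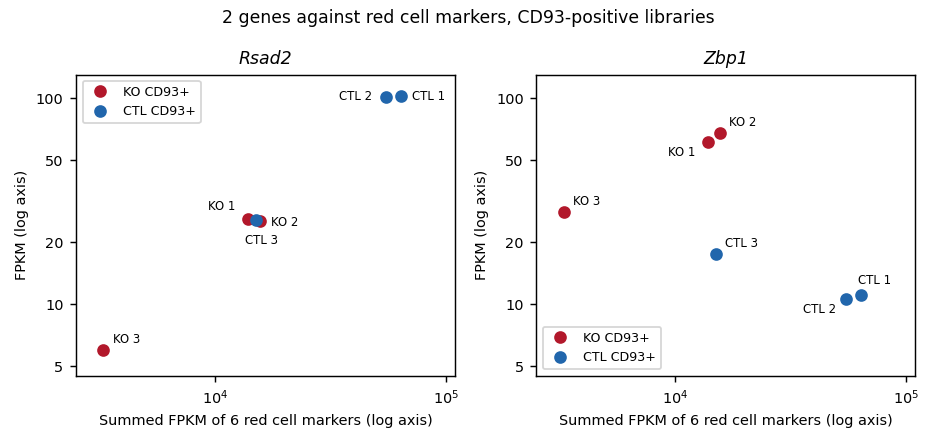
FPKM of Rsad2 (left) and Zbp1 (right) in each CD93-positive library against the summed FPKM of 6 red cell markers, both on log axes. Rsad2 lies near 1 line through KO and CTL libraries alike, from 6.01 FPKM in KO 3 to 102 FPKM in CTL 1 and CTL 2, while the KO points of Zbp1 lie above all CTL points.

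Set side by side, 4 of the 38 genes tested in both tables were called higher in deficient cells of both populations (Zbp1, Oas1a, Oasl2 and Lgals3bp), 27 were called higher in CD93-negative cells without a call in CD93-positive cells, and 6 had no call in either (Ddx58, Adar, Samd9l, Herc6, Trim25 and Sp100). Oasl2 met the filter in CD93-positive cells through the KO libraries alone, and its change there was -0.18 with sex as a covariate. Of the 27, Ifih1, Oas1g and Ifit1 met the filter in CD93-negative cells through the DKO libraries alone. Over all tested genes 18.7% rose in CD93-negative cells, and 1.67% rose and 1.54% fell in CD93-positive cells. The share of all genes with each pair of calls was not counted. The difference between the populations was not tested, because the tables were scaled separately. By promoter, 12 of 13 genes with an ISRE-like match rose in CD93-negative cells, and so did 10 of 15 tested genes with a promoter but no match. Among the 13 were Ifih1, Oas1g, Ifit1 and Rsad2, which met the filter through the DKO libraries alone. The 15 held no such gene, so these counts cannot be set against each other. In CD93-positive cells 1 of 13 with a match rose and 1 fell, and of 16 without a match 2 rose. There Ifih1 and Oas1g with a match, and Oasl2 without, met the filter through the KO libraries alone. Lgals3bp was among the genes without a match that rose in both populations, while Isg15, with 3 matches, was called in CD93-negative cells and not in CD93-positive ones.

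The genes upstream of this response gave the following picture in CD93-negative cells, where 18.7% of all tested genes rose and 2.79% fell. Transcripts of interferon-alpha and interferon-beta were at or near 0, with no value above 0.838 FPKM for any ligand other than Ifng, and 8 of the ligand genes were listed at 0 in all 6 libraries. Ifng, the gene of interferon-gamma, was at 1.64, 1.73 and 1.20 FPKM in DKO libraries, against 0.395, 1.18 and 0.688 FPKM in CTL libraries, which was not called (log2 change 0.54 ± 0.19, limma adjusted p = 0.0611). Of 5 receptor genes tested, 0 rose and 0 fell (0 at an unadjusted p of 0.05 in either direction). Of 6 signal transducers 3 rose, Stat3 at 56.8, 60.7 and 60.1 FPKM in DKO libraries, against 29.2, 39.9 and 35.6 FPKM in CTL libraries (log2 change 0.76 ± 0.14, limma adjusted p = 0.00213), Stat2 (0.71 ± 0.13) and Irf9 (0.53 ± 0.12), the last 2 being subunits of ISGF3. Of 7 other IRF factors 4 rose, led by Irf1 at 170, 164 and 189 FPKM in DKO libraries, against 45.9, 58.1 and 58.6 FPKM in CTL libraries (log2 change 1.68 ± 0.14, limma adjusted p = 5.40e-06), with Irf7, which drives interferon-alpha genes (0.93 ± 0.15), Irf8 (0.77 ± 0.15) and Irf2 (0.45 ± 0.13). Among 11 genes for sensing upstream of interferon 4 rose, of which Tlr7, the receptor of single-stranded RNA (0.88 ± 0.13), its adaptor Myd88 (0.80 ± 0.16) and Ticam1, the adaptor of Tlr3 (0.73 ± 0.13), had the largest changes. Of 6 feedback inhibitors 3 rose, with Socs1 at 43.5, 49.6 and 54.9 FPKM in DKO libraries, against 3.90, 3.95 and 4.42 FPKM in CTL libraries (log2 change 3.30 ± 0.13, limma adjusted p = 1.17e-08), Socs3 (2.54 ± 0.13) and Ptpn2 (0.43 ± 0.14). Socs1, which blocks Jak kinases, thus changed by more than any of the antiviral genes. The calls of Ptpn2 and Irf2 were less firm. Ptpn2 (limma adjusted p = 0.0476) was called under 6 of 16 alternatives (adjusted p from 0.0123 to 0.237). Irf2 (limma adjusted p = 0.0285) was called under 12 of 16 (adjusted p from 0.00871 to 0.145). None of these lists held a gene called lower, but after rescaling 3 receptor, 3 transducer, 2 IRF, 3 sensing and 1 feedback genes were. Rescaling gave 23.8% of all tested genes lower and 17.1% higher.

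In CD93-positive cells Ifng was called higher, at 2.38, 3.76 and 0.915 FPKM in KO libraries, against 0.448, 0.639 and 1.01 FPKM in CTL libraries (log2 change 0.90 ± 0.25, limma adjusted p = 0.0118), and KO replicate 3 lay within the controls. It was called under 8 of 17 alternatives (adjusted p from 0.00981 to 0.999 over 17 alternatives). Of the 16 other ligand genes, 1, 11 and 15 were above 0 in the KO libraries, against 4, 4 and 2 in the CTL libraries. Over all 23234 genes, 8258, 6311 and 1326 were at 0 in the KO libraries, against 6283, 4039 and 7454 in the CTL libraries. KO replicate 3 thus had the fewest genes at 0. The ligand sums were 0.0148, 2.62 and 6.41 FPKM in KO libraries, against 1.17, 0.617 and 0.234 FPKM in CTL libraries. The highest single value was 1.19 FPKM, of Ifna14 in KO replicate 3, none of the 16 met the filter, and KO replicate 1 was below all controls. No receptor, transducer or IRF gene was called (0 of 5, 0 of 6 and 0 of 7, with 0, 0 and 1 higher and 0 lower at an unadjusted p of 0.05). After rescaling 1 receptor and 1 transducer gene were lower and 2 IRF genes higher and 2 lower, and without KO replicate 3 2 IRF genes were higher. Irf1 was at 116, 126 and 53.1 FPKM in KO libraries, against 52.0, 46.2 and 58.0 FPKM in CTL libraries (after rescaling log2 change 1.06, adjusted p = 0.00157; adjusted p from 0.00151 to 0.9995 over 21 alternatives). Stat2 was at 19.3, 17.1 and 8.90 FPKM in KO libraries, against 16.3, 15.2 and 18.3 FPKM in CTL libraries, with overlapping groups (log2 change -0.19 ± 0.37, limma adjusted p = 0.871). Tlr7 rose (log2 change 1.02 ± 0.30, limma adjusted p = 0.0235), as did Socs3 (log2 change 1.37 ± 0.32, limma adjusted p = 0.00088), while Socs1, at 42.3, 34.7 and 19.2 FPKM in KO libraries, against 29.2, 23.6 and 25.2 FPKM in CTL libraries, was not called (log2 change 0.22 ± 0.38, limma adjusted p = 0.857) but was after rescaling (log2 change 0.46, adjusted p = 0.0239; adjusted p from 0.0239 to 0.9995 over 21 alternatives). Of the sensing genes 3 were higher and 1 lower after rescaling, and of the feedback inhibitors 2 and 1. Over all genes tested in CD93-positive cells 1.67% rose and 1.54% fell, and 11.4% and 9.34% after rescaling.

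Other interferon-induced families served as a comparison. Shares over all tested genes were 18.7% higher and 2.79% lower in CD93-negative cells (17.1% and 23.8% after rescaling). They were 1.67% and 1.54% in CD93-positive cells (11.4% and 9.34% after rescaling). Of 26 further antiviral genes tested in CD93-negative cells, 12 rose and 0 fell (15 and 0 at an unadjusted p of 0.05), with a median change of 0.45 (12 and 4 after rescaling), and the 3 largest were in Nlrc5, the activator of MHC class I genes (1.62 ± 0.16), Casp4, an inflammatory caspase (1.58 ± 0.15), and Slfn5 (1.27 ± 0.13). Of 17 interferon-inducible GTPases of the Irg and Gbp families, which attack vacuoles of intracellular microbes, 16 rose and 0 fell, also after rescaling. The median change was 0.91 in the antiviral genes, against 1.86 in these GTPases. Iigp1 had the widest change, at 43.5, 39.8 and 44.2 FPKM in DKO libraries, against 0.362, 0.255 and 0.442 FPKM in CTL libraries (log2 change 5.01 ± 0.13, limma adjusted p = 5.25e-10). It met the filter through the DKO libraries alone. The counts and medians of these comparison families were not taken again without such genes. In CD93-positive cells 9 of 16 GTPases rose and 0 fell (15 higher after rescaling, and 12 without KO replicate 3), and the median change was 0.085 in the antiviral genes, against 1.31 in the GTPases. Iigp1 changed most again (log2 change 3.64 ± 0.30, limma adjusted p = 8.66e-32). Its SE and p there come from the spread shared by genes of like expression, and not from its own libraries. Of the further antiviral genes there, 2 of 26 rose, Casp4 (1.19 ± 0.33) and Gm4951 (0.87 ± 0.25), with 5 after rescaling and 4 without KO replicate 3. With sex as a covariate, resting on CTL replicate 3 alone, the median change was -0.087 in the antiviral genes and 1.18 in the GTPases. The difference between the families was not tested.

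**Figure D5:**
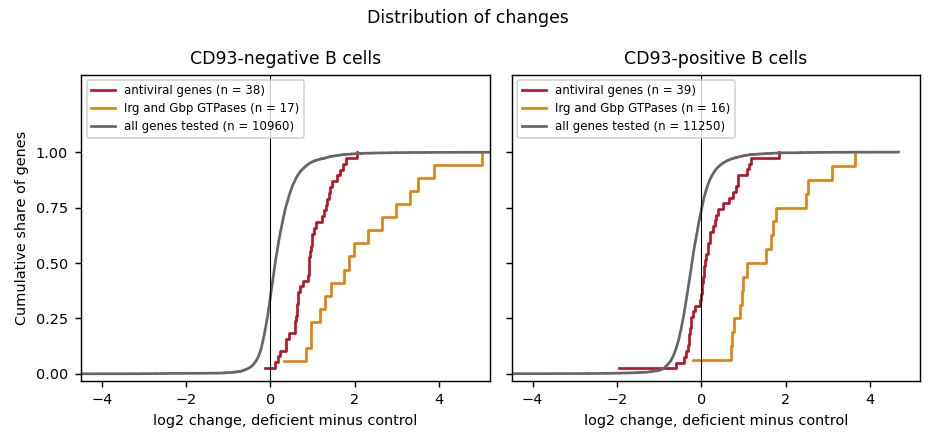
Cumulative share of genes by log2 change, deficient minus control, for the antiviral genes, the Irg and Gbp GTPases and all genes tested in each population. In CD93-negative cells the antiviral curve lies between all genes and the GTPases (medians 0.91 for antiviral genes, 1.86 for GTPases and 0.11 for all genes). In CD93-positive cells its median lies nearer to that of all genes than to that of the GTPases (medians 0.085 for antiviral genes, 1.31 for GTPases and -0.22 for all genes). It was 0.31 above the median of all genes there, with 29 of 39 antiviral genes above that median.

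Markers of other cells were measured beside these genes, and their part in the results was not tested. Among all tested genes 18.7% rose and 2.79% fell in CD93-negative cells, and 1.67% and 1.54% in CD93-positive cells. Cd79a, a chain of the B cell antigen receptor, was at 919, 964 and 982 FPKM in DKO libraries, against 843, 1049 and 1003 FPKM in CTL libraries of CD93-negative cells, and at 1098, 1199 and 572 FPKM in KO libraries, against 1400, 1200 and 1589 FPKM in CTL libraries of CD93-positive cells. Of 7 B cell markers 0 were called in either population. After rescaling 4 were lower in each, where 23.8% and 9.34% of all tested genes were. Groups stood apart for 2 markers, higher, in CD93-negative cells and for 4, lower, in CD93-positive cells. Of all tested genes 31.5% and 19.0% did so in those directions. In CD93-negative cells 5 of 7 T cell markers rose (sum 32.8 to 34.0 FPKM in DKO and 13.7 to 23.5 FPKM in CTL libraries), as did 3 of 5 tested macrophage and monocyte markers, C1qb, Emr1 and Ly6c2 (sum of the list 83.5 to 88.0 FPKM in DKO and 41.3 to 59.9 FPKM in CTL libraries), and 4 of 6 tested red cell markers. Plasma cell markers rose too, 3 of 5, with Igj at 192, 212 and 221 FPKM in DKO libraries, against 4.49, 9.78 and 9.09 FPKM in CTL libraries. Of plasmacytoid dendritic cell markers, the cells best known for making interferon-alpha, 1 of 7 rose, Ccr9 (sum 60.2 to 64.6 FPKM in DKO and 54.0 to 79.2 FPKM in CTL libraries). At an unadjusted p of 0.05, 1 was higher and 2, Siglech and Klk1b27, were lower, and after rescaling 1 was called higher and 2 lower. Of NK cell markers 0 of 6 rose, and of tested neutrophil markers 0 of 3 (0 and 1 at an unadjusted p of 0.05). The neutrophil sum was 2.96 to 12.8 FPKM in DKO and 1.70 to 8.35 FPKM in CTL libraries, with 1 marker at 0 in all 6. In CD93-positive cells neutrophil markers summed to 434 to 1359 FPKM in KO and 1546 to 2161 FPKM in CTL libraries, and 1 of 7, Retnlg, was called lower. At an unadjusted p of 0.05, 5 neutrophil markers were lower and 0 higher (Camp, Ngp, Retnlg, S100a8 and S100a9 lower). After rescaling 4 were lower, where 9.34% of all tested genes were, and 4 were lower without overlap, where 19.0% were. Plasma cell markers rose in 3 of 5 (Igj, Prdm1 and Xbp1), 0 of 7 T cell and 0 of 9 macrophage markers were called (0 and 2 at an unadjusted p of 0.05). Without KO replicate 3, 4 of the 7 T cell markers and 1 of the 9 macrophage markers were higher, and the T cell sum was 39.7 to 132 FPKM in KO and 60.3 to 77.7 FPKM in CTL libraries. NK cell markers summed to 11.1 to 34.1 FPKM in KO and 7.205 to 20.9 FPKM in CTL libraries, with 0 of 3 tested called (2 at an unadjusted p of 0.05, 1 after rescaling). Plasmacytoid dendritic cell markers summed to 12.5 to 22.1 FPKM in KO and 12.8 to 18.8 FPKM in CTL libraries, with 0 of 3 tested called (0 at an unadjusted p of 0.05). After rescaling and without KO replicate 3 Pacsin1 was called higher (log2 change 0.73, adjusted p = 0.0456 after rescaling; adjusted p from 0.00926 to 0.9995 over 20 alternatives), and Siglech, the defining marker of the list, was at 1.59, 2.99 and 1.70 FPKM in KO libraries, against 2.79, 2.89 and 2.28 FPKM in CTL libraries.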

How the data were processed

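RNA was taken from sorted, freshly isolated splenic B cells and made into strand-specific libraries from total RNA, per the labels' protocols. The authors deposited FPKM values for each gene and library. Bowtie2 2.1.0, TopHat2 2.0.8 and Cufflinks 2.1.1 with mouse build mm9 are named in the submitters' processing notes; the annotation, filters and handling of reads that map to several genes are not given in the sources used here. Columns were matched to samples by their titles. The CD93-positive table holds 6 further columns of values, identical to those used, which were left out, and 25 names in each table are dates.

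The 40 genes, their 8 functional groups and all other lists were chosen with earlier results of these data known. Values were compared as log2(FPKM + 1), in each table on its own, over genes that reached 1 FPKM in 3 or more libraries, with limma 3.58.1 in R 4.3.3 (empirical Bayes with a trend, 2-sided, Benjamini-Hochberg threshold 0.05). An exact permutation test of 3 against 3 libraries cannot give a p below 0.1, so none was run. Counts at an unadjusted p of 0.05 have no share over all genes beside them. Percentages of all genes that rose or fell are of adjusted calls. In the CD93-positive fit all genes of like expression share 1 estimate of the spread. The SE and p of a gene in that fit therefore do not reflect the spread among its own libraries. Genes given library by library are the 2 with the largest and the 1 with the smallest change of each functional group in CD93-negative cells, together with those called or without overlap in CD93-positive cells; in lists of over 8 genes the 3 called genes with the largest change are named. Promoters are from RefSeq, build GRCm38.p6, motifs were matched by exact letters, and shared 50-base stretches were counted in GENCODE transcripts. Alternatives were pseudocounts of 0.1 and 5, no filter, a filter of 5 FPKM, upper quartile and quantile scaling, no trend, sample weights, a replicate block, sex (read from Xist and Ddx3y) as a covariate and leaving out each library. After the data were seen, female libraries only and combinations with rescaling were added. In 3 of the other lists 1 gene is not reported here, and each of those lists is counted without it.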

Additional observations from a re-analysis of the deposited data

How the results depend on the processing

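In CD93-negative cells the antiviral genes kept 32 calls higher and 0 lower under both pseudocounts and without the trend. Leaving out 1 library gave 26 to 34 antiviral genes higher and 0 to 1 lower (Samd9l, without CTL replicate 1), with 1180 to 2630 genes higher and 188 to 1109 lower in all; the counts that moved most were 1337 higher and 202 lower without DKO replicate 2, 1180 and 188 without DKO replicate 3, and 1109 lower without CTL replicate 1. The 1 antiviral gene lower under upper quartile rescaling, with or without the trend, and under quantile normalization was Samd9l; these gave 2609, 2587 and 2314 genes lower over the whole table. No filter gave 184 genes lower, and sample weights gave 1361 higher. Of the calls of single genes under alternatives in which they were tested, 569 stayed as they were, 9 were gained and 17 lost. Mx2, Daxx, Xaf1 and Ifi35 accounted for all calls lost among genes still tested. Genes below the filter of an alternative are not in these counts. Without any 1 DKO library 36 antiviral genes were tested, as Ifih1 and Oas1g fell below the filter, and 31 were with a filter of 5 FPKM. In CD93-positive cells 718 stayed, 36 were gained, 49 lost and 3 changed sign with a call under 1 of the settings. Oasl2 was at -0.18 with sex as a covariate and in female libraries only, and Isg20 was at 0.88 with rescaling and sex. In each of these settings the change rests on CTL replicate 3 as the only female control. A further 125 sign changes over both populations concerned values called under neither setting. The cause of these changes was not tested.

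Counts over the whole CD93-positive table, higher and lower, were 11 and 5 with no filter, 73 and 95 with a filter of 5 FPKM, 1280 and 1051 with upper quartile rescaling, 1103 and 1127 with quantile normalization, 106 and 82 without the trend, 1112 and 940 with rescaling and no trend, 551 and 232 with sample weights, 80 and 47 with sex as a covariate, 398 and 172 with rescaling and sex, 10 and 7 in female libraries, 142 and 21 in rescaled female libraries, and 899 and 648 with rescaling and without KO replicate 3. The antiviral genes called higher and lower were 0 and 0 with no filter, 1 and 1 with a filter of 5 FPKM, 9 and 1 with either rescaling, 1 and 1 without the trend, 11 and 1 with rescaling and no trend, 6 and 0 with sample weights, 0 and 0 with sex, 5 and 0 with rescaling and sex, 0 and 0 in female libraries, 3 and 0 in rescaled female libraries, and 7 and 0 with rescaling and without KO replicate 3. The settings with sex or female libraries only rest on CTL replicate 3 as control, so their counts do not part sex from the loss of controls. Leaving out 1 library gave 80 to 487 genes higher and 42 to 212 lower, and 1 to 5 antiviral genes higher and 0 to 1 lower. Over the table there were 97 higher and 42 lower without CTL replicate 1 and 109 and 48 without CTL replicate 2. There were 80 higher without KO replicate 2 and 487 higher without KO replicate 3.

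Same-numbered libraries did not vary together (correlations of deviations 0.024, -0.113 and -0.086 in CD93-negative cells, and 0.166, -0.113 and -0.139 in CD93-positive cells), so the numbers do not pair the samples. A replicate block gave 2435 genes higher and 439 lower in CD93-negative cells, with 32 antiviral genes higher and 0 lower, and 138 higher and 99 lower in CD93-positive cells, with 2 antiviral genes higher and 1 lower. Read totals were not at hand, so precision at low FPKM is unknown.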

Other observations

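Ube2l6, the conjugating enzyme that loads Isg15 and a gene of the further antiviral list, was chosen after its values were seen. In CD93-positive cells it was at 59.5, 67.6 and 31.3 FPKM in KO libraries, against 180, 161 and 53.5 FPKM in CTL libraries (log2 change -1.19 ± 0.41, limma adjusted p = 0.0921; adjusted p from 0.0445 to 0.9995 over 21 alternatives). Both male controls were highest and KO replicate 3 lowest, as for Rsad2. In CD93-negative cells Ube2l6 was at 16.9, 20.3 and 17.9 FPKM in DKO libraries, against 14.8, 15.8 and 18.7 FPKM in CTL libraries, with overlapping groups (log2 change 0.16 ± 0.14, limma adjusted p = 0.477).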
